A study of Mus musculus with 8 samples.

Results

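*Syn1*, the gene of synapsin I, was examined together with the genes that share its place on the mouse X chromosome (*Timp1*, *Cfp*, *Araf* and *Elk1*) and with its paralog *Syn2*. The members were these 6 of the 30789 gene symbols in the deposited annotation of an Illumina mouse bead chip, read with every probe that carries 1 of the symbols, 15 of 45281 probes. *Syn1* itself was included because its signal was higher after Ac-LDL in these same arrays, so its difference between the groups is given as a description without a test. The others were included for their position or their relation to *Syn1*. The question put to the arrays was whether the higher *Syn1* signal was its own or shared by the genes around it.

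The samples were peritoneal macrophages that had been drawn into the abdominal cavity of C57/BL6 mice by thioglycollate. In 4 samples the cells were incubated for 24 h with acetylated low-density lipoprotein (Ac-LDL) at 120 μg per ml, a modified lipoprotein that macrophages take up through scavenger receptors. The 4 control samples were mock treated for the same time. All 8 samples came from mice aged 8 weeks, which the study's methods describe as male wild-type animals, and the cells were kept by adherence in medium conditioned by L-929 cells. The labels number each group as biological replicates 1 to 4. Replicates 1 and 2 of both groups lay on 1 bead chip (slide 1) and replicates 3 and 4 on another (slide 2).

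Synapsins are phosphoproteins on the surface of synaptic vesicles, where they tether vesicles to the cytoskeleton and to one another, and *Syn1* is commonly used as a neuronal marker. The locus has an unusual layout. *Timp1*, which encodes a secreted inhibitor of matrix metalloproteinases, lies inside *Syn1* on the opposite strand, and the related pairs *Timp4* in *Syn2* and *Timp3* in *Syn3* are nested in the same way in the RefSeq annotation of GRCm38.p6. In that annotation the order of protein-coding genes is *Araf*, *Syn1*, *Timp1*, *Cfp* and *Elk1*, and the annotated ends of *Araf* and *Syn1* overlap. *Araf* encodes a RAF kinase that feeds the MEK and ERK kinases. *Cfp* encodes properdin, a plasma protein that stabilises the convertase of the alternative complement pathway and is made largely by leukocytes. *Elk1* encodes an ETS-family transcription factor that acts with serum response factor at immediate early genes.

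Each probe is a 50-base oligonucleotide, and the sequences below show what distinguished the signals at this crowded locus. The first 30 bases of the *Syn1*, *Araf* and *Cfp* probes are given in lower case. Both *Timp1* probes are given whole, with the 42 bases that they share in capitals, so that they are no independent readings of the gene.
Syn1 ILMN_2762083: cacccctcagcggctctgaacccccaagag
Syn1 ILMN_1235133: catatgtggtcctcattcatgccgcctgtg
Araf ILMN_2914271: tggagagctgttttatctccaatggctgtg
Cfp ILMN_1228320: gaagaaaccctaaaatcccttgcttccatt
Timp1 ILMN_3103896: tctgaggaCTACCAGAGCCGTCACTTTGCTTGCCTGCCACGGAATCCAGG
Timp1 ILMN_2769918: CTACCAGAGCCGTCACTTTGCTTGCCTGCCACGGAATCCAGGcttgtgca

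The deposited annotation, which does not name its genome build, placed the *Syn1* probe ILMN_2762083 on the minus strand at chrX:20437658-20437707 and ILMN_1235133 at chrX:20437761-20437810, 53 bases apart. The *Araf* probe ILMN_2914271 lay on the plus strand at chrX:20437460-20437509, only 148 bases from the nearer *Syn1* probe. The *Timp1* probe ILMN_3103896 was placed on the plus strand at chrX:20451675-20451724, and the *Cfp* probe on the minus strand at chrX:20502682-20502731, 65.0 kb from the brighter *Syn1* probe. No genome of this build was used here, so the exon or untranslated region that a probe lies in was not read. The longest run of bases that either *Syn1* probe shared with a probe of another gene symbol on the chip, on either strand, was 14 bases.

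A probe was tested if its detection p-value, which ranks it against negative controls, reached 0.05 or lower in 4 or more arrays, and 9 of the 15 probes met this. They were both *Syn1* probes, both *Timp1* probes, the *Cfp* probe and 4 of 5 *Araf* probes, and each was detected on all 8 arrays. The 3 *Syn2* probes, both *Elk1* probes and the remaining *Araf* probe were detected on no array. Between 27 and 72 beads stood behind each signal of a member. Values below are normalized log2 intensities unless the deposited signal is named, and a change is the mean of the 4 Ac-LDL arrays minus that of the 4 control arrays. Levels of different probes are not compared, since probes differ in their hybridisation.

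*Syn1* was higher in the Ac-LDL samples with both probes. With ILMN_1235133 the control replicates 1 to 4 read 6.22, 6.68, 6.97 and 7.18, and the Ac-LDL replicates 7.47, 7.88, 7.71 and 7.81. Every Ac-LDL array therefore lay above every control array, and the control arrays of slide 1 were the lowest. The means were 6.76 ± 0.41 and 7.72 ± 0.18 (SD, n = 4 each), a change of 0.95 ± 0.19 (SE) or 1.94-fold.

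The brighter probe, ILMN_2762083, read 6.53, 6.91, 7.08 and 7.31 in the control replicates and 7.57, 7.88, 7.33 and 7.96 in the Ac-LDL replicates. The groups again did not overlap, but Ac-LDL replicate 3 stood only just above control replicate 4. The means of 6.96 ± 0.33 and 7.69 ± 0.29 (SD, n = 4 each) differed by 0.73 ± 0.18 (SE), or 1.66-fold. Of all 17122 tested probes, 2.11% had every Ac-LDL array above every control array, and since *Syn1* was chosen for this difference nothing is read from that share. The groups separated on the normalized scale only. In the deposited signals, ILMN_1235133 ranged from 108 to 187 in the controls and from 183 to 246 with Ac-LDL, and ILMN_2762083 from 128 to 204 and from 191 to 259, so that the ranges of both probes overlapped slightly.

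The size of the *Syn1* difference varied between the replicates, and whether it depended on the slide was not tested. Arrays with the same replicate number shared deviations from their group means, and were therefore also read as pairs. The pair differences of ILMN_1235133 were 1.24, 1.20, 0.74 and 0.64 for replicates 1 to 4. Those of ILMN_2762083 were 1.04, 0.97, 0.25 and 0.65. Within slide 1 the mean differences were 1.22 and 1.01 for the 2 probes, and within slide 2 they were 0.69 and 0.45. All pairs had the same direction, and with both probes the pairs on slide 1 differed more than those on slide 2. When single arrays or whole pairs were left out, the change ranged from 0.77 to 1.09 for ILMN_1235133 and from 0.59 to 0.90 for ILMN_2762083.

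**Figure D1:**
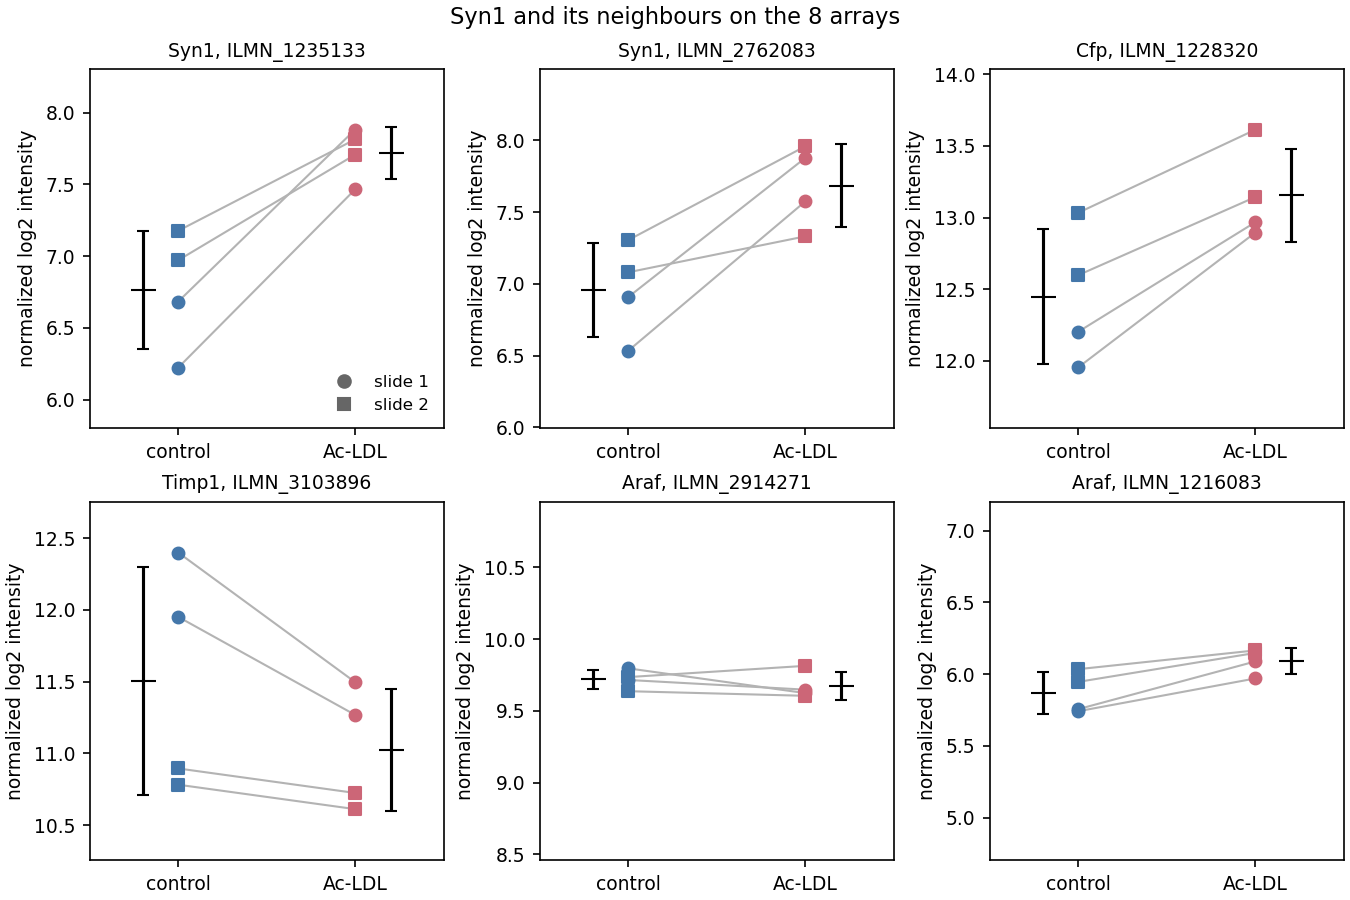
Normalized log2 intensity (y axis) of 6 probes of *Syn1*, *Cfp*, *Timp1* and *Araf* in the 4 control and the 4 Ac-LDL arrays (x axis). Circles are arrays of slide 1 and squares arrays of slide 2, grey lines join arrays of the same replicate number, and black bars give the group mean ± SD. All panels span the same number of log2 units. The *Syn1* groups do not overlap, *Cfp* is higher and *Timp1* lower in all 4 pairs with overlapping groups, and of the *Araf* probes ILMN_2914271 moves both ways and ILMN_1216083 is slightly higher in all pairs with overlapping groups.

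*Cfp* had the highest change among the tested neighbours, in the direction of *Syn1*. It read 11.96, 12.20, 12.60 and 13.03 in the control replicates and 12.89, 12.97, 13.14 and 13.61 in the Ac-LDL replicates. All 4 pairs were higher with Ac-LDL, as in 11.5% of all tested probes, by 0.94, 0.76, 0.54 and 0.58, but control replicate 4 lay above the Ac-LDL arrays of slide 1, so that the groups overlapped. The means were 12.45 ± 0.47 and 13.15 ± 0.32 (SD, n = 4 each), a change of 0.71 ± 0.23 (SE) or 1.63-fold with a 95% confidence interval of 1.14 to 2.34-fold. In the fit without a block *Cfp* did not pass the threshold (limma adjusted p = 0.806), and the exact two-sided permutation test over the 70 assignments of arrays gave p = 0.0857, where the smallest p it allows is 0.0286.

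When the fit held the replicate number as a block, the change of *Cfp* was the same 0.71 with an SE of 0.092, and it passed the threshold (limma adjusted p = 0.0218). That call was lost when any 1 of the 4 replicate numbers was left out of the blocked fit, in which the change stayed between 0.63 and 0.75 and the limma adjusted p reached 0.0979 at its highest and fell just short of the threshold at its lowest. With the slide as a block the limma adjusted p was 0.0754. Within slides, *Cfp* was higher by 0.85 on slide 1 and by 0.56 on slide 2. The *Cfp* signal also differed between the slides themselves, by 0.59 ± 0.14 (SE, slide 2 minus slide 1; limma adjusted p = 0.0131), a step almost as large as its change with Ac-LDL.

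*Timp1*, the gene nested in *Syn1*, moved the other way and did not pass the test. Its brighter probe, ILMN_3103896, read 12.40, 11.95, 10.90 and 10.78 in the control replicates and 11.50, 11.27, 10.72 and 10.61 in the Ac-LDL replicates. All 4 pairs were lower with Ac-LDL, as in 10.3% of all tested probes, with differences of -0.90, -0.68, -0.17 and -0.17, while the arrays of slide 2 were below those of slide 1 in both groups. The means of 11.51 ± 0.79 and 11.03 ± 0.43 (SD, n = 4 each) differed by -0.48 ± 0.36 (SE), with a 95% confidence interval of -1.27 to 0.31 (limma adjusted p = 0.967, exact permutation p = 0.314). The replicate block narrowed the SE to 0.13 and left the limma adjusted p at 0.187. The overlapping probe ILMN_2769918 changed by -0.51 ± 0.37 (SE), with a limma adjusted p of 0.967 without a block and of 0.138 with it.

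The *Timp1* signal of the brighter probe, ILMN_3103896, differed more between the slides than between the groups. Slide 2 was lower than slide 1 by -1.03 ± 0.15 (SE; limma adjusted p = 0.00170). The Ac-LDL difference was -0.79 within slide 1 and -0.17 within slide 2, and the difference between these effects, 0.62, did not pass the test (limma adjusted p for the interaction = 0.549). Leaving out control replicate 1 brought the change to -0.19 and leaving out control replicate 4 brought it to -0.72, so that single control arrays set its size.

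The *Araf* probe that lies closest to those of *Syn1*, ILMN_2914271, had group means within their spread of each other. It read 9.80, 9.71, 9.64 and 9.73 in the control replicates and 9.62, 9.65, 9.60 and 9.81 in the Ac-LDL replicates. Its change of -0.05 ± 0.09 (SE) had a 95% confidence interval of -0.25 to 0.15 (limma adjusted p = 0.990, exact permutation p = 0.429). The other tested *Araf* probes changed by 0.22 ± 0.10 (ILMN_1216083), 0.12 ± 0.14 (ILMN_2564840) and 0.11 ± 0.12 (ILMN_1237241, all SE).

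Of these, ILMN_1216083 was likewise higher in 4 of 4 pairs and passed no threshold (limma adjusted p = 0.946, and 0.278 with the replicate block; exact permutation p = 0.0571). ILMN_1237241 was lower by -0.12 within slide 1 and higher by 0.35 within slide 2, a difference between slides that did not pass the test (limma adjusted p = 0.546). The first 15 bases of ILMN_2564840 match the end of the RefSeq window around the *Araf* start, which puts this probe at the beginning of the transcript.

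**Figure D2:**
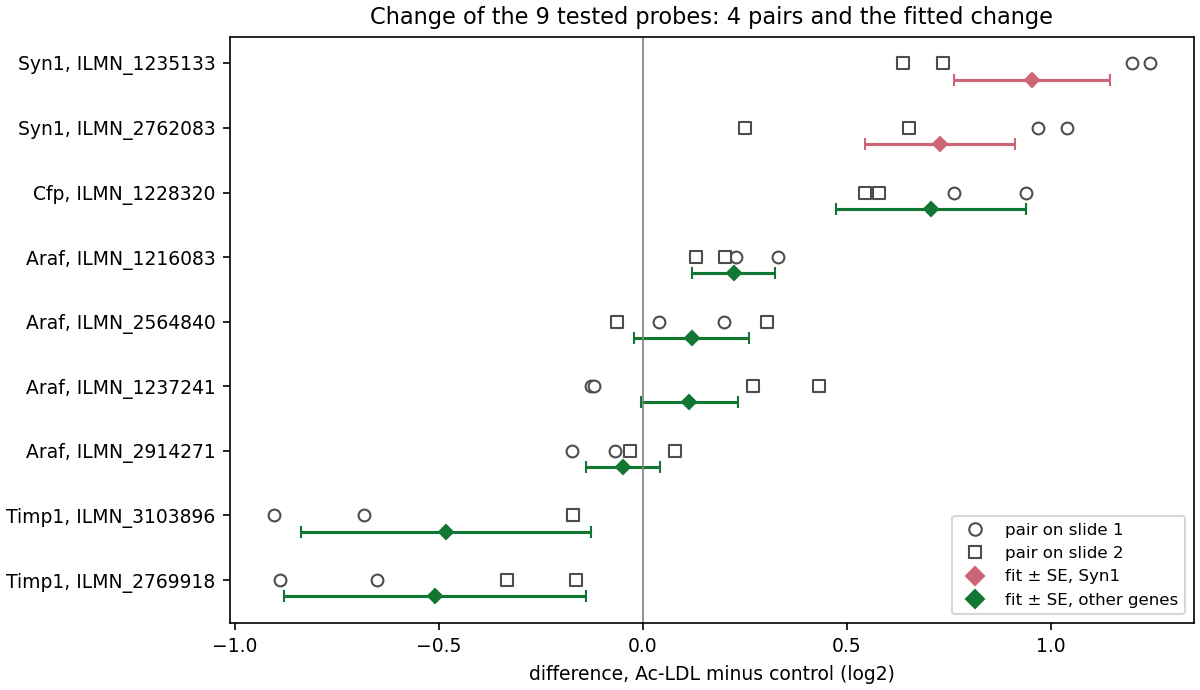
Difference between Ac-LDL and control on the log2 scale (x axis) for the 9 tested probes (y axis). Open circles and squares are the 4 pairs of arrays on slide 1 and slide 2, and diamonds with bars are the fitted change ± SE, red for *Syn1* and green for the other genes. *Syn1* and *Cfp* lie to the right of 0 in all pairs, with fitted changes of 0.95, 0.73 and 0.71, *Araf* ILMN_1216083 also lies to the right at 0.22, the pairs of the other *Araf* probes fall on both sides of 0, and both *Timp1* probes lie to the left.

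*Elk1* and the paralog *Syn2* were not measurable on these arrays. The deposited signals of the *Elk1* probes were between 33.3 and 41.4 in all samples, with a lowest detection p-value of 0.379. Those of the *Syn2* probes were between 34.5 and 49.9, with a lowest detection p-value of 0.0737. No change can be given for either gene, and a change below the detection limit would not have been seen.

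Counted over the members other than *Syn1*, 0 of 7 tested probes were called in the fit without a block, at a limma adjusted p under 0.05, while 1 of the 7, *Cfp*, had an unadjusted p under 0.05, against 5.2% of all tested probes. Over all tested probes 0.0409% were called, and the methods' t-test, the study's own unpaired test, called 0 of all tested probes after the same adjustment. With the replicate block 1 of 7 was called, *Cfp*, against 0.45% of all tested probes. With the slide block it was 0 of 7, against 0.327%. An unadjusted p under 0.05 was found for 4 of the 7 under the replicate block, against 13.8% of all tested probes, and for 4 of the 7 under the slide block, against 12.1%. In both fits these were *Cfp*, *Araf* ILMN_1216083 and the overlapping pair of *Timp1* probes, of which *Timp1* was lower. Whether the change of *Syn1* differed from that of each neighbour was not tested, as *Syn1* was chosen on the same contrast.

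Beyond the members, the tested probes in the surrounding part of the chromosome stayed near 0. Within 500 kb of the *Syn1* probe the deposited annotation placed 22 other probes, of which 11 for 7 gene symbols were tested. These 11 include the probes of *Timp1*, *Cfp* and *Araf* placed there. Their median change was -0.04, with 5 higher and 6 lower, beside a median of 0.00 over all tested probes. Apart from the probes of *Timp1*, *Cfp* and *Araf*, those tested in this window belonged to *Uxt*, *Ndufb11*, *Rbm10* and *Uba1*, with changes between -0.09 and 0.11. Without a block 0 of the 11 was called, against 0.0409% of all tested probes. With the replicate block only *Cfp* was, against 0.45%.

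Over the whole X chromosome, 377 tested probes other than *Syn1* had a median change of 0.03, with 214 higher and 163 lower. Over all tested probes 8630 were higher and 8492 lower. Without a block none was called higher and 1 lower, where 0.0409% of all tested probes were called. The replicate block called *Cfp* higher and 4 genes lower (*Nsdhl*, *Rab9*, *Tsc22d3* and LOC666559). These were 1.33% of the 377 probes, against 0.45% of all tested probes.

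**Figure D3:**
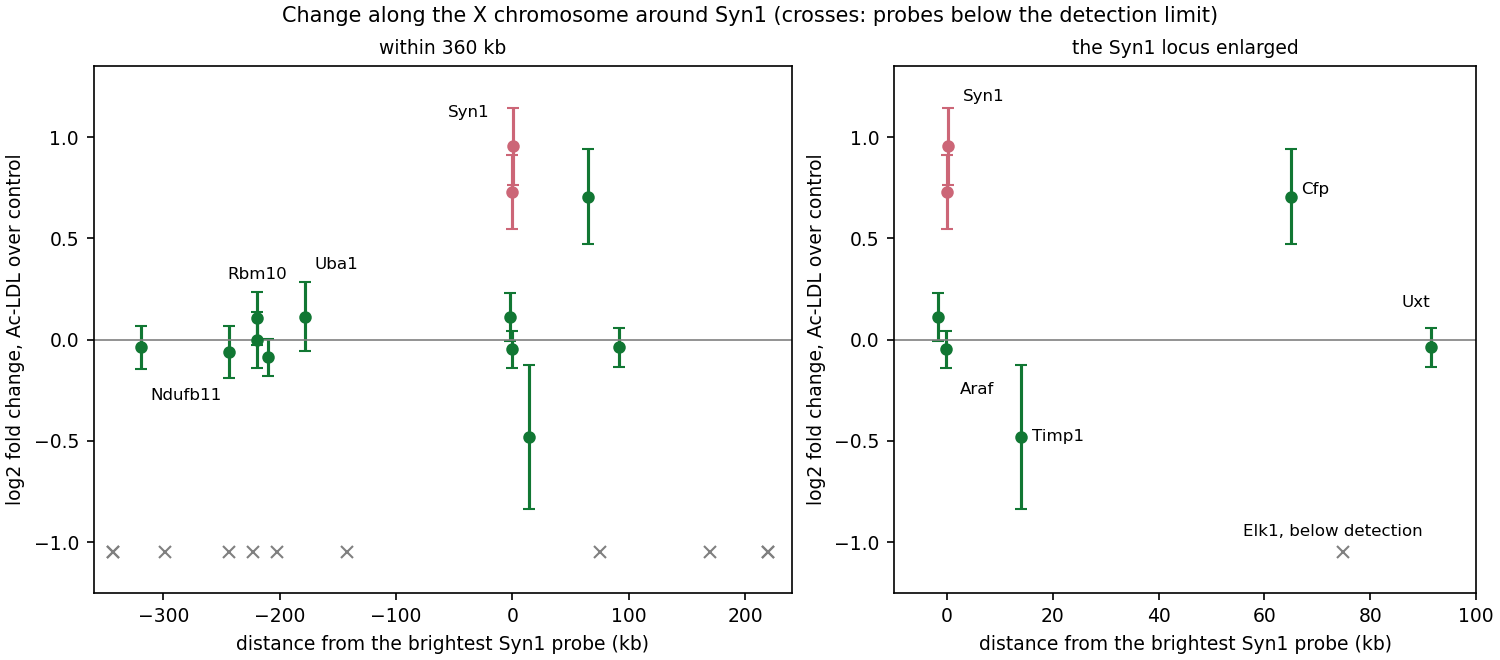
Change with Ac-LDL on the log2 scale (y axis, ± SE) against distance from the brighter *Syn1* probe in kb (x axis), for probes that the deposited annotation places on the X chromosome near *Syn1*. The left panel shows the wider window, the right panel the locus itself; red points are *Syn1*, green points other tested probes, and crosses at the bottom are probes below the detection limit, which have no change. The points next to *Syn1* on both sides, *Araf* and *Timp1*, are at or below 0.11, and *Cfp*, 65.0 kb away, is the neighbour at 0.71.

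Over the 8 arrays, the profile of *Cfp* was among those nearest to *Syn1* and the profile of *Timp1* among the farthest. Likeness was measured as the root mean square difference from the brighter *Syn1* probe after each probe was centred on its own mean, in log2 units, over 17121 other tested probes with a median of 0.48. The arrays share 2 groups and 2 slides, so that any probe with like steps between them scores as near, and the order is a description. The nearest was the other *Syn1* probe at 0.193, followed by *BC026585* at 0.217, *Mmp27* at 0.220, *Sdc3* (syndecan-3, a cell surface proteoglycan) at 0.221 and *Arrdc3* (an arrestin-domain protein) at 0.228. Their changes with Ac-LDL were 0.41, 0.75, 0.56 and 0.47. *Cfp* came next, ranked 6, at 0.229. The *Araf* probes were between 0.348 and 0.471 away, near the middle of all probes except for ILMN_1216083, and the *Timp1* probes were among the farthest at 0.963 and 0.988.

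**Figure D4:**
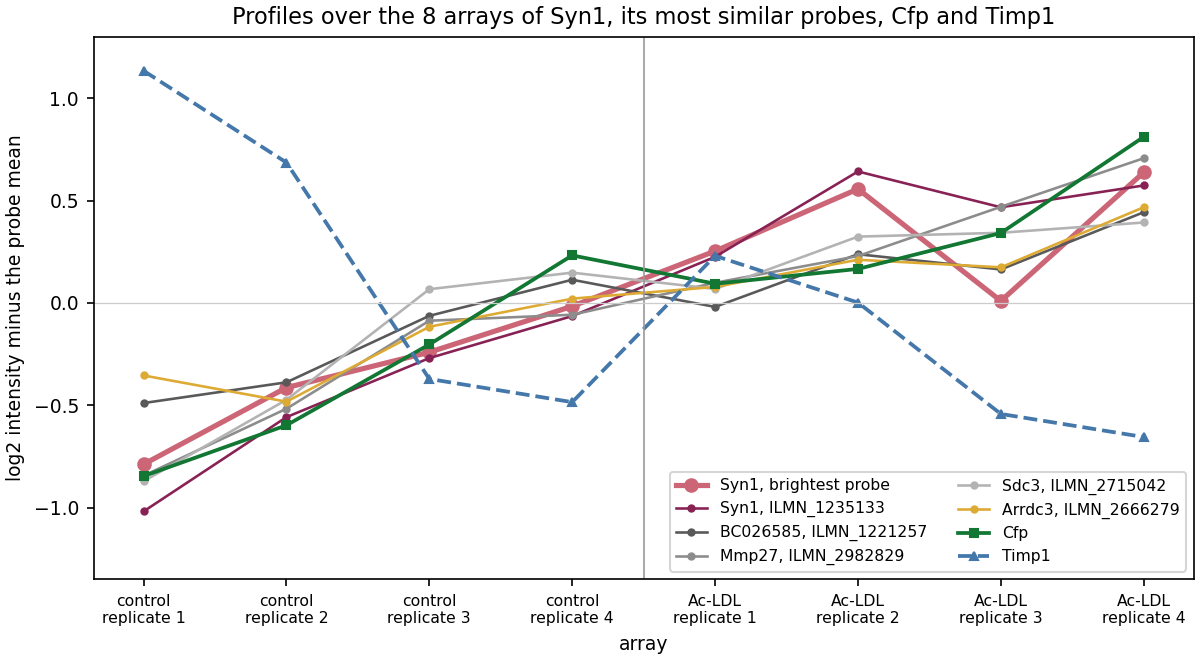
Log2 intensity minus the probe's mean over all arrays (y axis) in each of the 8 arrays (x axis, control left and Ac-LDL right of the vertical line). The thick red line is the brighter *Syn1* probe, thin lines its 5 nearest probes, and green squares and the dashed blue line are *Cfp* and *Timp1*. *Syn1* and *Cfp* are lowest in control replicate 1 and highest in Ac-LDL replicate 4, and *Timp1* runs the opposite way; replicates 1 and 2 are on slide 1 and replicates 3 and 4 on slide 2, so replicates have no order of their own.

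The other members of the synapsin and TIMP families were called neither without a block nor under either block. Of the synapsins, *Syn3* was tested and changed by -0.12 ± 0.13 (SE; limma adjusted p = 0.986). Of the TIMP family, *Timp2* was higher by 0.20 ± 0.09 (SE), with all Ac-LDL arrays above all control arrays, and was not called (limma adjusted p = 0.924, and 0.331 with the replicate block). *Timp3*, nested in *Syn3*, changed by -0.21 ± 0.12 (SE; limma adjusted p = 0.961, and 0.316 with the replicate block). It was lower in 4 of 4 pairs, as 10.3% of all tested probes were. *Timp4* was not detected. Of the 3 tested TIMP genes, *Timp1* included, 1 without a block and 3 under the replicate block had an unadjusted p under 0.05. Of all tested probes 5.2% and 13.8% did.

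No gene listed for the presynaptic vesicle machinery was called. Of 26 such genes on the chip, 9 had a tested probe, and limma called 0 in either direction without a block or under either block, while 0 without a block and 2 under the replicate block had an unadjusted p under 0.05, against 5.2% and 13.8% of all tested probes. Their median change was -0.02, and the highest was 0.26 for *Vamp2* (a vesicle SNARE protein). The 17 genes without a tested probe included *Syt1*, *Snap25*, *Slc17a7* and *Bsn*, which are widely used to mark synapses.

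The start region of *Syn1* is shown because synapsin I is a textbook target of the repressor REST, which binds the RE1 element. The 250 bases before the RefSeq start are given 5′ to 3′ on the minus strand of GRCm38.p6, at chrX:20920919-20921168. The first stretch in capitals, TTCAGCACC, is the left part of an RE1 element, 232 bases before the start. The other, TGACGTCA, is a cyclic AMP response element, 159 bases before it.
Syn1 promoter: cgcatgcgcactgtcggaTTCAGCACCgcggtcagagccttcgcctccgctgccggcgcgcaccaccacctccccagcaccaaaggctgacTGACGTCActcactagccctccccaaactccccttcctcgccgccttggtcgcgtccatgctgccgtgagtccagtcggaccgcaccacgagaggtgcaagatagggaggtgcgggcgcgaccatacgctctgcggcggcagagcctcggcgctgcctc

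Searched on both strands, TTCAGCACC was found in 0.371% and TGACGTCA in 1.79% of 32851 RefSeq start windows of the same 300 bases. Neither was found in the windows of *Syn2*, *Timp1*, *Cfp*, *Araf* or *Elk1*. The AP-1 letters TGANTCA (7.81% of windows) and the sterol response element letters TCACNCCAC (1.24%) were found in no window of the 6 genes. The motifs were chosen after the sequences had been seen, and a match is a description of letters and not of binding. *Rest* itself was not detected on these arrays. 8 of 9 genes of the REST repressor complex were tested, with a median change of 0.06, from -0.07 for *Hdac2* to 0.19 for *Rcor2* (a corepressor), and limma called 0 in any of the 3 fits, with 0 at an unadjusted p under 0.05 without a block or under the replicate block.

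The pathways around the neighbouring genes gave no further call. Of 9 alternative complement genes, 6 were tested with a median change of 0.00. Among them *Cfp* was the one called, with the replicate block alone, which called 0.45% of all tested probes.

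Of 10 metalloproteinase genes listed beside *Timp1*, 7 were tested with a median of -0.10, from -0.32 for *Mmp3* (stromelysin) to 0.13 for *Mmp13* (collagenase). For this list limma called 0 in any of the 3 fits. Of 14 genes of the RAF-MEK-ERK cascade, 12 were tested with a median of 0.02. *Dusp6*, a phosphatase of ERK, had the largest change among them, 0.56 ± 0.31 (SE; limma adjusted p = 0.960, and 0.130 with the replicate block), and *Map2k1* the lowest, -0.21. Of 12 ternary complex factors and immediate early genes, 7 were tested with a median of -0.01, from -0.18 for *Junb* to 0.37 for *Fos* (limma adjusted p = 0.960). Limma called 0 genes of the last pair of lists in any of the 3 fits. In each of these 3 lists, 0 genes without a block and 1 gene under the replicate block had an unadjusted p under 0.05. Of all tested probes, 5.2% and 13.8% did.

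Most macrophage, fibroblast and mesothelial markers were detected, and neuronal markers were below the detection limit. Of 14 macrophage marker probes, 13 were tested, for 9 of 10 genes (*Msr1*, a scavenger receptor, was the gene without one). The summed levels of the 9 genes overlapped between the groups, with 67006 to 79096 in the controls and 70588 to 77949 with Ac-LDL. Most of this sum came from *Lyz* and *Lyz2*, with control means of 14.97 and 14.72 on the log2 scale, so it says little of the dimmer markers. None of the 11 probes for 7 neuron markers (*Tubb3*, *Nefl*, *Nefm*, *Elavl3*, *Elavl4*, *Stmn2* and *Gap43*) was tested, and 1 of their 88 values was detected. The *Syn1* signal was thus not accompanied by these markers. In these bulk samples, a change in the share of cells of a type and a change in RNA per cell cannot be told apart.

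Of 6 neutrophil markers, 2 were tested, *S100a8* and *Ltf*. Their summed level was 580 to 636 in the controls and 682 to 746 with Ac-LDL, so that the groups did not overlap. Nearly all of this sum was *S100a8*, with a control mean of 9.19 on the log2 scale beside 4.67 for *Ltf*. The *S100a8* probe had every Ac-LDL array above every control array, as 2.11% of all tested probes did, while the groups overlapped for *Ltf*. *S100a8* was higher by 0.24 ± 0.09 (SE; limma adjusted p = 0.844), and *S100a9*, *Camp*, *Ngp* and *Mpo* had no tested probe. The part of neutrophils in the *Syn1* and *Cfp* differences was not tested. All 6 fibroblast markers were tested, and their sums of 10508 to 14466 in the controls and 10957 to 13454 with Ac-LDL overlapped. Most of this sum came from *Dcn*, with a control mean of 13.21 on the log2 scale, so it says little of the dimmer genes. Of the 6 genes 2 were higher and 4 lower. *Col1a2* had the lowest change, -0.23 ± 0.09 (SE), and was lower in 4 of 4 pairs, as 10.3% of all tested probes were. *Lum* had the highest, 0.34 ± 0.39 (SE), and was higher in 4 of 4 pairs, as 11.5% were. The sums of 3 mesothelial markers also overlapped, with 4227 to 5893 and 4281 to 4895. Of the B cell, T cell and eosinophil markers 1 gene each was tested, and of the mast cell markers none. Limma called 0 genes of any marker list in the 3 fits, while 1 neutrophil and 1 fibroblast gene had an unadjusted p under 0.05 without a block. Under the replicate block it was 1 of 2 neutrophil, 3 of 6 fibroblast and 3 of 9 macrophage genes. The shares of all tested probes were 5.2% without a block and 13.8% under the replicate block. The macrophage genes under that limit with the replicate block moved both ways. *Cd14*, a receptor for bacterial lipopolysaccharide, changed by -0.48 ± 0.26 (SE) and was lower in 4 of 4 pairs. Its limma adjusted p was 0.960 without a block and 0.0801 with the replicate block. *Itgam* and *Mrc1* were higher by 0.35 ± 0.35 and 0.34 ± 0.38 (SE), each in 3 of 4 pairs. Of the 9 macrophage genes 6 were higher and 3 lower, with a median change of 0.05.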

How the data were processed

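RNA of 4 Ac-LDL and 4 control macrophage samples was hybridised to Illumina mouse bead chips, 1 array per sample. The study's methods describe mRNA purified from the extracted total RNA. Per the labels the arrays were read in BeadStudio, with no version given. The authors deposited, for 45281 probes, the mean bead intensity of every array on a linear scale, neither background-subtracted nor normalized between arrays. They also deposited a detection p-value against the negative controls, the bead standard error of that signal, and the count of beads, whose median per probe was 43 to 44. The authors' own GeneSpring GX values were not used. The genome build is not given in the sources used here. 0 deposited per-sample columns were left out.

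With R 4.3.3 and limma 3.58.1, intensities were background corrected (normexp, negative controls inferred from the detection p-values, offset 16), quantile normalized and put on the log2 scale. Each array detected 16679 to 17439 probes (detection p-value up to 0.05), and the 17122 probes for 12423 symbols that were detected in 4 or more of the 8 arrays were tested. The groups were compared by limma's moderated test without a block, since the study's test was unpaired, and Benjamini-Hochberg adjusted p under 0.05 was called. The number of arrays limits the precision. Nothing beyond the label of biological replicates says that the samples came from separate animals, so p-values measure the spread between these samples. Exact permutation tests used all 70 assignments of arrays.

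Across probes, deviations from the group means of same-numbered arrays had an r of 0.580, 0.479, 0.469 and 0.630, so that the numbers were taken to pair the samples. On the same slide, arrays of different numbers had 0.189 to 0.447. The replicate number, and the slide read from the array labels, were blocks in alternative fits. Other alternatives changed the background correction, the offset, the scaling, the detection filter, the prior and the test, or left out arrays.

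The members, gene lists and markers were chosen with earlier results of these data known. All member probes were accounted for, a gene was given by its brightest tested probe with others where they differed, the 5 probes most like *Syn1* were named, and of each list the genes called, or else the largest change in each direction, were named, except for an item that is not reported here. The synapsin, TIMP and wider locus lists held 3, 4 and 16 genes on the chip. *Nsdhl*, *Rab9*, *Tsc22d3*, LOC666559, *Timp3* and the genes of the 500 kb window outside the members were named after their values were seen. The symbols of all 15 member probes were in the RefSeq table. Sequences came from the deposited probe annotation and from RefSeq (GRCm38.p6). The fits without a block and with the replicate block were tested on simulated data. The simulated arrays were independent, with no replicate or slide effect, so that this does not test how the blocks act on these arrays.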

Additional observations from a re-analysis of the deposited data

How the results depend on the processing

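The change of *Syn1*, *Cfp* and *Timp1* kept its direction under every alternative run, from 0.58 to 0.95 for both *Syn1* probes and from 0.62 to 0.71 for *Cfp* outside the fits that left out arrays or a slide. The call of *Cfp*, at 0.71, was gained with the replicate block. The number of members called, 0, became 2 under the replicate block (against 0.45% of all tested probes) and 1 under the slide block (against 0.327%), where 1 in each fit was a probe of *Syn1*, from which nothing is read because the gene was chosen on this contrast, so that the neighbours had 1 and 0. It stayed at 0 when arrays or pairs were left out without a block (range 0 to 0), and was between 0 and 1 in the replicate block with 1 pair left out, a setting chosen after seeing the data. Among listed genes, 0 were called, and 1 with the replicate block.

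Over all tested probes, the 7 calls became 77 with the replicate block, 56 with the slide block, 26 with median scaling, 16 with limma's trend and robust prior, and 0 without a detection filter and by the methods' t-test after Benjamini-Hochberg adjustment, which had 1039 probes at an unadjusted p under 0.05 and 28 higher and 25 lower at the study's limits. Leaving out arrays gave 0 to 15. The blocked fit gave 38, 51, 10 and 6 without replicate 1, 2, 3 and 4. On the X chromosome 1 call became 5 with the replicate block, 4 with the slide block, 0 without a detection filter and 0 by the methods' t-test, and leaving out arrays gave 0 to 1, and 3, 3, 1 and 0 in the blocked fit without replicates 1 to 4. *Araf* ILMN_1237241 moved from 0.11 to -0.12 within slide 1 and 0.35 within slide 2. Causes were not tested. Dim probes limit what can be said of *Syn2* and *Elk1*, which have no signal above background.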
